A study of Drosophila melanogaster with 6 samples.

Results

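Dp peaks narrower than 4000 bp that share no base with any Rbf peak were described here, from chromatin immunoprecipitation followed by sequencing (ChIP-seq) of Drosophila melanogaster flight muscles. There were 2552 such sites among the 5149 peaks of the Dp list, after the single mitochondrial peak was left out. They were chosen from the deposited peak positions alone, by width and by the lack of an overlapping peak in the Rbf list of 3471 peaks. The comparison group was the 2108 Dp peaks under 4000 bp that share at least 1 bp with an Rbf peak, called Dp peaks with Rbf below. The other Dp peaks on the chromosome arms, 488 in number, were at least 4 kb wide.

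Dp is the dimerization partner with which E2F transcription factors bind DNA. Rbf is a fly protein of the retinoblastoma family, which binds E2F/Dp dimers and represses their targets. Flies have an E2F known mainly as an activator, which can act free of Rbf, and another known mainly as a repressor, which sits with Dp and Rbf in the multi-subunit dREAM complex. E2F activity is known to be needed for the growth of fly skeletal muscle during development. Neither E2F was profiled here, so which E2F accompanied Dp at a site was not measured.

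The muscles were dissected from pharate animals, the stage just before eclosion, 96 h after pupa formation. All animals carried P{UAS-mCherry-RNAi}attP2, a hairpin against a fluorescent protein that flies lack, and a GAL4 driver with muscle regulatory sequence of Mef2, and they stood for wild type. Chromatin was fixed in 1.8% formaldehyde. The Rbf list, matched to its samples by name, belongs to 2 samples precipitated with the mouse antibodies DX3/DX5. The Dp list belongs to 2 samples precipitated with a rabbit antibody. A further 2 samples were input chromatin. The protocol gives growth at 25 °C, but for Dp the stage is labelled with 5 °C. Each list gives 1 position and 1 score per peak, with no values per sample. The score is the authors' own, its unit is not stated, and it ranks peaks within a list. Replicate spread and read depth are therefore unknown, and no test over samples could be made. All comparisons below are descriptions, and a site without an Rbf peak is a site where no Rbf peak was called, not one shown to lack Rbf. Intervals are at 95% and reflect the number of peaks counted, with no replicate error, and neighbouring peaks are not independent. Differences between the antibodies cannot be told apart from differences between the separate experiments that the sample records show.

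Of the 4660 Dp peaks under 4 kb on the 6 chromosome arms, 54.8% had no Rbf peak (exact interval 53.3 to 56.2). This percentage is set by the rule that chose the sites. Among the 488 Dp peaks of at least 4 kb the share was 48.4% (43.8 to 52.9), or 236 peaks. The sites without Rbf covered 2155 kb, 28.4% of the length under all Dp peaks on the arms. Dp peaks with Rbf covered 2457 kb (32.4%) with fewer peaks, and those of at least 4 kb covered 2963 kb (39.1%). The sites thus made up a large part of the Dp peaks by number and a smaller part by length.

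Sites without Rbf were narrow. Their widths ran from 261 to 3962 bp, with a median of 637 bp (626 to 653) and quartiles of 490 and 922 bp. Dp peaks with Rbf had a median of 1028 bp (1014 to 1044) and quartiles of 846 and 1270 bp. The narrower median held on 6 of 6 arms. Width is part of the rule, and a wider peak has more room to meet an Rbf peak, so this difference is partly built in. It was -208 bp in place of -391 bp when sharing required 50% coverage of both peaks.

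They also had low scores. The lowest score among sites without Rbf was 50.08, the median was 143.33 (136.94 to 148.46), and the highest was 1368.99. In Dp peaks with Rbf the lowest was 50.01, the median 1113.06 (1066.18 to 1154.74) and the highest 3217.88. Above the highest-scoring site without Rbf stood 788 Dp peaks with Rbf, 37.4% of that group. A score of at least 1000 was reached by 15 sites without Rbf (0.588%) and by 1159 Dp peaks with Rbf (55.0%). A score of at least 500 was reached by 220 (8.62%) and 1582 (75.0%). At the other end, 849 sites without Rbf (33.3%) and 105 peaks with Rbf (4.98%) scored below 100. The groups overlapped in score between 50.08 and 1368.99. The upper range was occupied by Dp peaks with Rbf alone.

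**Figure D1:**
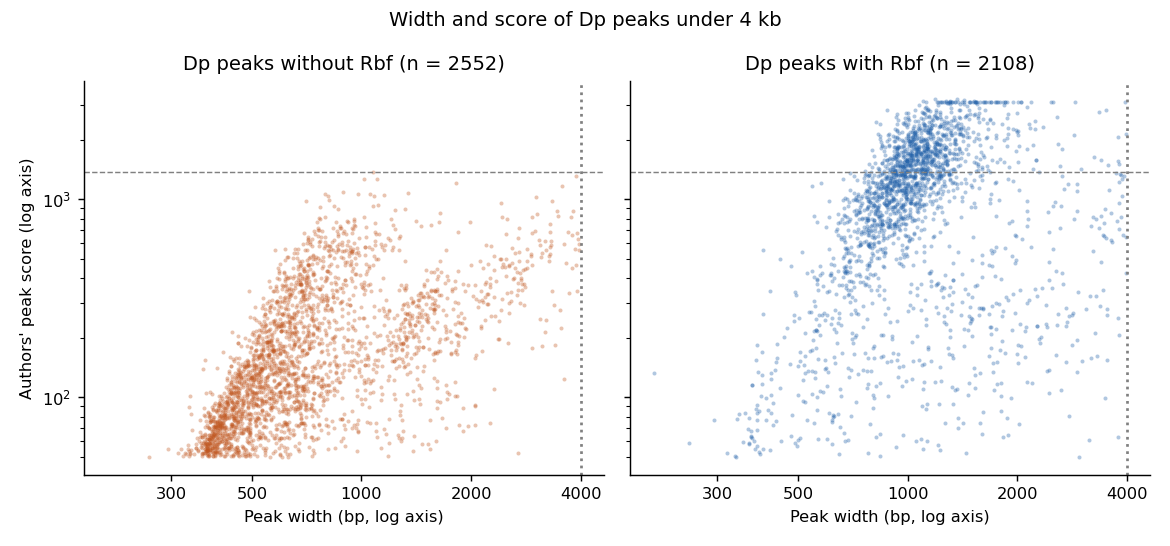
Width (x, bp, log axis) against the authors' score (y, log axis) for each Dp peak under 4 kb without Rbf (left, 2552 points) and with Rbf (right, 2108 points). The dotted line marks the limit of 4000 bp and the dashed line the highest score without Rbf, 1368.99; sites without Rbf form a steep band of narrow peaks and a second, flatter band of broad peaks.

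Peaks of similar width also differed in score. In 11 of 11 width classes the median score was lower without Rbf than with Rbf. From 800 to below 1000 bp the medians were 285 without and 1113 with Rbf, from 1000 to below 1200 bp they were 231 and 1538, and from 1200 to below 1500 bp they were 213 and 1671. The difference was small at the extremes. Under 400 bp the medians were 59.8 and 76.8, and from 3000 to below 4000 bp they were 574 and 713. The width and score classes were drawn after the data were seen.

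The share of Dp peaks without Rbf did not change in 1 direction with width. It was 83.5% (78.0 to 88.0) under 400 bp, 93.3% (90.8 to 95.3) from 400 to below 500 bp, 77.2% (73.2 to 80.8) from 600 to below 700 bp and 31.7% (28.5 to 35.1) from 800 to below 1000 bp. The lowest share of the 11 classes was 19.8% (16.7 to 23.2), from 1000 to below 1200 bp. Broader peaks had higher shares again, with 33.6% (29.4 to 38.1) from 1200 to below 1500 bp, 49.8% (42.6 to 56.9) from 2000 to below 3000 bp and 45.2% (35.4 to 55.3) from 3000 to below 4000 bp. With score, the share fell without a later rise. It was 88.4% (85.1 to 91.2) from 50 to below 70, 89.5% (86.5 to 92.1) from 70 to below 100, 68.9% (64.7 to 72.9) from 300 to below 500, 32.6% (29.0 to 36.5) from 500 to below 1000 and 1.77% (0.993 to 2.90) from 1000 to below 2000. None of the 326 peaks scoring 2000 or more lacked Rbf, with an upper bound of 1.13%.

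**Figure D2:**
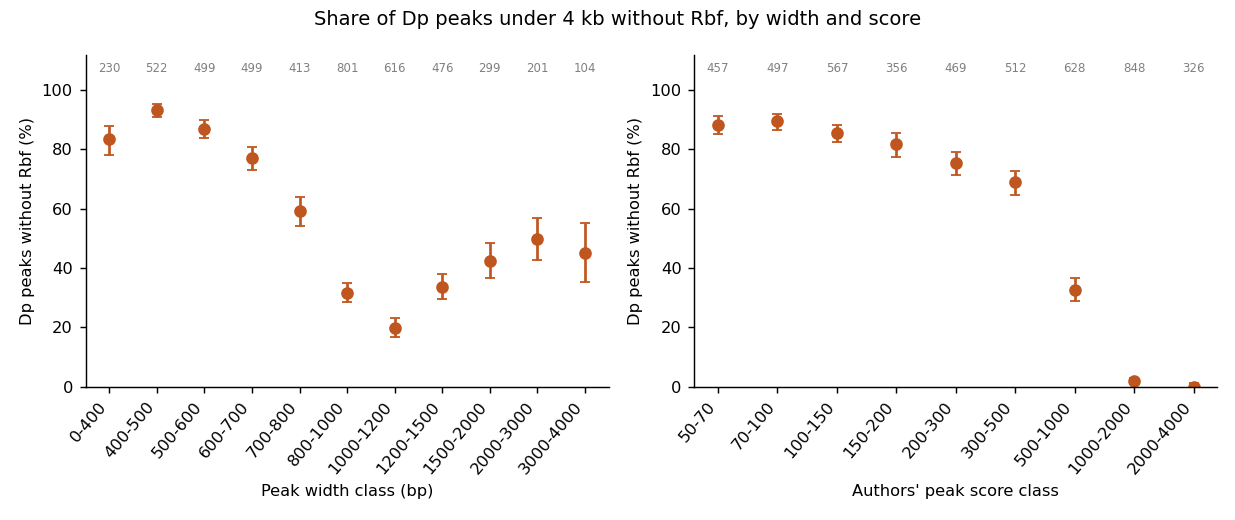
Percent of Dp peaks under 4 kb without Rbf (y) by width class in bp (left) and class of the authors' score (right), with exact 95% intervals as bars and the number of peaks in grey; each class holds its lower limit and not its upper one. The share is lowest at 1000 to 1200 bp (19.8%) and, across score classes, comes down to 0 of 326.

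On the plot of score against width, sites without Rbf formed a narrow and a broad band. Most sites were under 800 bp: 1742 sites, or 68.3%, with a median score of 110.42 (quartiles 73.41 and 188.92). A further 376 (14.7%) were from 800 to below 1200 bp, with a median score of 265.27, and 434 (17.0%) were from 1200 to below 4000 bp, with a median of 277.24 (quartiles 185.41 and 402.22). Dp peaks with Rbf were distributed otherwise, with 20.0% under 800 bp, 49.4% from 800 to below 1200 bp and 30.6% above. Score rose with width among narrow sites without Rbf (Spearman's rho 0.65 across 1742 peaks), showed no trend from 800 to below 1200 bp (rho -0.03, 376 peaks) and rose again among broad ones (rho 0.46, 434 peaks). In Dp peaks with Rbf it rose about as much among narrow ones (rho 0.68, 421 peaks). There it also rose from 800 to below 1200 bp (rho 0.38, 1041 peaks) and fell among broad ones (rho -0.27, 646 peaks). These coefficients are across peaks of 1 list, whose widths and scores come from the same reads. Sites without Rbf that scored from 200 to below 500 included 348 of 707 under 800 bp (49.2%), 124 from 800 to below 1200 bp (17.5%) and 235 broader ones (33.2%). At such intermediate scores, a narrow and a broad shape were thus both common, as they were in the 274 Dp peaks with Rbf of that score (44.2%, 15.0% and 40.9%).

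Narrow and broad sites differed in their surroundings. Another Dp peak lay at a gap of at most 500 bp from 24.5% of sites under 800 bp, from 36.2% of those from 800 to below 1200 bp and from 57.8% of the broad ones. Median gaps to the nearest Dp peak were 2700, 1615 and 224 bp. In Dp peaks with Rbf the shares within 500 bp were 13.1%, 8.55% and 23.8%, with median gaps of 5245, 4856 and 2600 bp. A Dp peak of at least 4 kb lay within 5 kb of 25.6% (21.5 to 30.0) of the broad sites without Rbf, against 9.82% (8.46 to 11.3) of the narrow ones. In Dp peaks with Rbf these shares were 11.6% (9.24 to 14.3) and 6.18% (4.07 to 8.92). Of sites in the 200 to 500 score range, 65.5% of the broad and 10.1% of the narrow ones had a Dp neighbour within 500 bp. The same contrast was present in Dp peaks with Rbf of that score, with 50% of the broad and 4.96% of the narrow ones. Most broad sites without Rbf thus had another Dp peak almost adjoining, and most narrow ones did not.

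The 3 peaks without Rbf nearest the width limit on each side overlapped in score, and each had another Dp peak close by. They are examples, and larger sets on either side of the limit were not compared. The 3 widest sites measured 3962 bp (3R, 7205701 to 7209662, score 594.57), 3955 bp (2L, 6428257 to 6432211, score 558.20) and 3935 bp (3R, 26902738 to 26906672, score 629.64), in coordinates of build BDGP5. Each had another site without Rbf close by, at gaps of 10, 104 and 64 bp. The 3 narrowest Dp peaks without Rbf beyond the limit measured 4033 bp (3L, 18522455 to 18526487, score 533.57), 4042 bp (X, 21565317 to 21569358, score 473.77) and 4172 bp (3R, 6081113 to 6085284, score 781.60). Their nearest Dp peaks lay 66, 16 and 53 bp away.

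Few sites without Rbf lay directly beside an Rbf peak. The gap from the edge of a site to the nearest Rbf peak ran from 6 to 278748 bp, with a median of 11056 bp (10223 to 11859) and quartiles of 3934 and 28653 bp. For Dp peaks with Rbf, the gap to the nearest Rbf peak that they did not touch had a median of 8368 bp (7854 to 9119) and quartiles of 2858 and 21394 bp. Measured between midpoints, the medians were 11820 bp (10868 to 12590) and 9363 bp (8782 to 10060). An Rbf peak lay within 500 bp of 85 sites without Rbf (3.33%, 2.67 to 4.10) and within 1 kb of 174 (6.82%, 5.87 to 7.87). Those shares were 5.12% and 9.77% in Dp peaks with Rbf. Within 5 kb of an Rbf peak lay 30.0% of sites without Rbf and 36.4% of Dp peaks with Rbf. Rbf peaks numbered 27.5 per Mb of listed span on the large autosome arms and 33.3 on X. The gap that this density alone would give was not computed, so whether the sites avoid Rbf was not tested. A near miss of the overlap rule thus concerned few sites. Gaps above 50 kb were found at 327 sites without Rbf (12.8%, 11.5 to 14.2) and at 173 Dp peaks with Rbf (8.21%, 7.07 to 9.46).

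The longer gap to Rbf held in most strata. It was seen on 5 of 6 arms, the exception being chromosome 4, with medians of 6561 bp without and 9079 bp with Rbf. It was seen in 8 of 11 width classes, not in those between 600 and 1000 bp. It was also seen in 7 of 8 score classes that held sites without Rbf, the exception being scores from 1000 to below 2000, with medians of 7624 and 9904 bp. Among broad peaks of 1200 bp or more the medians were 12480 bp without and 5370 bp with Rbf. Among narrow peaks the medians were 10986 and 9404 bp. Without Rbf peaks under 300 bp, the difference in median gap over all widths was 4244 in place of 2688 bp. The direction depended on the overlap rule: when a shared peak had to cover 50% of its partner and be covered to 50% by it, the medians were 5338 bp without and 9079 bp with Rbf, since sites that touch an Rbf peak then counted as without Rbf at a gap of 0.

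The Rbf peak nearest to a site mostly lay on another Dp peak, at a share close to that of all Rbf peaks. It did so for 2142 of the 2552 sites (83.9%, 82.5 to 85.3), against 81.9% (80.6 to 83.2) of all 3470 Rbf peaks on the arms. For Dp peaks with Rbf, the nearest Rbf peak not touched lay on a Dp peak in 88.4% (86.9 to 89.7). These shares count Dp peaks, so 1 Rbf peak can enter more than once. The nearest Rbf peaks were 1288 distinct ones for the 2552 sites and 1708 for the 2108 Dp peaks with Rbf. The intervals do not allow for this, and the share of all Rbf peaks counts each once. Within 1 kb the share was 87.4% in both groups, 152 of 174 (81.5 to 91.9) and 180 of 206 (82.1 to 91.6). Of those 174 sites, which had 169 distinct nearest Rbf peaks, 17.2% (11.9 to 23.7) had one under 300 bp. The median score of the Rbf peaks nearest to the 2552 sites, with repeats, was 159.41, against 147.94 for all Rbf peaks on the arms.

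The closest approach without overlap was 6 bp, on 2R, where a site at 9878407 to 9878969 (score 195.11) was followed by an Rbf peak of 274 bp at 9878976 to 9879249. The next were 12 bp at 22389870 to 22391138 on 2L and 20 bp at 22375808 to 22376545 on X. On the other side of the rule, the smallest overlap counted as shared was 2 bp, in a 928 bp Dp peak at 21269602 to 21270529 on 2L. The next were 17 bp at 434803 to 435317 on chromosome 4 and 52 bp at 21342592 to 21343167 on X. Scores of these 3 shared peaks were 56.21, 95.53 and 107.64, within the range common among sites without Rbf.

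The sites most distant from Rbf lay on 2L and 2R. A site of 592 bp on 2L at 14706183 to 14706774 (score 433.33) was 278748 bp from the nearest Rbf peak. A site of 388 bp on 2R at 15894274 to 15894661 (score 55.30) was 238260 bp away, and another of 390 bp on 2L at 14588865 to 14589254 (score 63.56) was 226659 bp away. For all 3, the nearest Dp peak was one of at least 4 kb, at 54427, 44112 and 53433 bp. The pair on 2L lay in the same interval without Rbf, between an Rbf peak ending at 14362205 and another starting at 14985523.

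**Figure D3:**
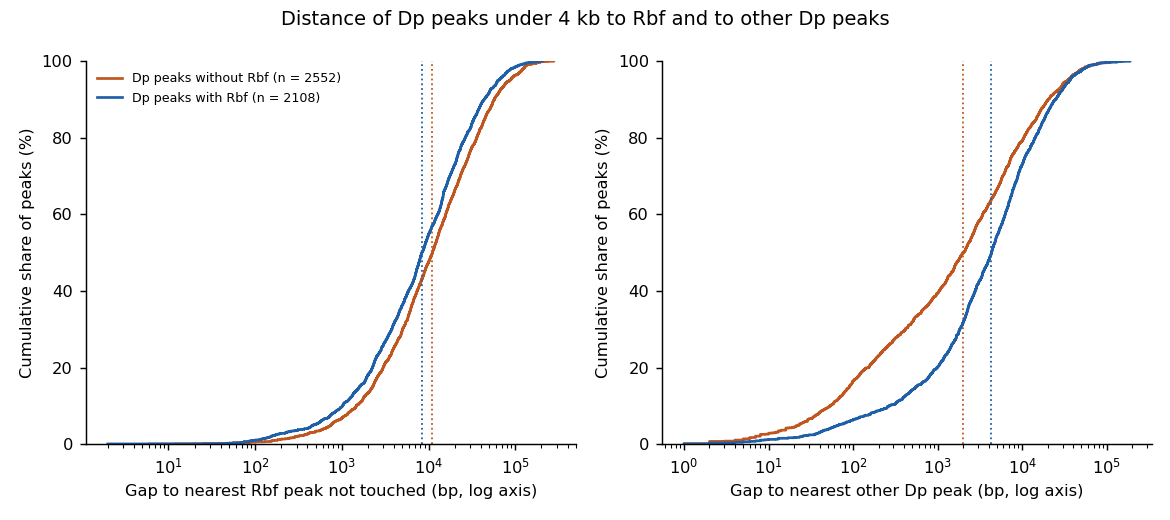
Cumulative percent of Dp peaks under 4 kb (y) by gap to the nearest Rbf peak that they do not touch (left) and to the nearest other Dp peak (right), in bp on log axes, without Rbf (orange, 2552 peaks) and with Rbf (blue, 2108 peaks). Dotted lines mark medians, which are 11056 and 8368 bp to Rbf and 2018 and 4326 bp to Dp, so the order of the groups is opposite in the panels.

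Sites without Rbf were more closely packed with other Dp peaks. The gap to the nearest Dp peak of any kind had a median of 2018 bp (1766 to 2260) without Rbf, with quartiles of 242 and 7422 bp. With Rbf the median was 4326 bp (3961 to 4640), with quartiles of 1413 and 10797 bp. The shorter median was seen on 6 of 6 arms. A Dp peak at a gap of at most 100 bp was found at 423 sites without Rbf (16.6%, 15.2 to 18.1) and at 134 Dp peaks with Rbf (6.36%, 5.35 to 7.48). At most 5 kb away it was found at 66.4% (64.5 to 68.2) and 54.2% (52.0 to 56.3). The share within 5 kb was larger without Rbf in 11 of 11 width classes but in 4 of 8 score classes. Peaks with Rbf that scored from 150 to below 200 had such a neighbour in 78.5%, and sites without Rbf of that score in 67.0%. The share within 500 bp was larger without Rbf in 11 of 11 width classes and in 5 of 8 score classes. At scores from 150 to below 200 it was 41.5% with and 32.3% without Rbf. The closer packing was thus not seen throughout among peaks of similar score.

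Neighbouring Dp peaks were often of the same kind, in both groups. The nearest Dp peak was itself a site without Rbf for 1390 of the 2552 sites (54.5%, 52.5 to 56.4), against 49.6% of all Dp peaks on the arms that were such sites. For Dp peaks with Rbf it was a site without Rbf in 44.4% (42.3 to 46.6) and a peak with Rbf in 48.5% (46.4 to 50.7), against 40.9% of all Dp peaks on the arms that were under 4 kb with Rbf. The excess over composition was thus no smaller in Dp peaks with Rbf than in sites without Rbf. At gaps of at most 500 bp the nearest Dp peak was a site without Rbf in 503 of 813 cases (61.9%, 58.4 to 65.2), a peak of at least 4 kb in 193 (23.7%, 20.9 to 26.8) and a peak with Rbf in 117 (14.4%, 12.0 to 17.0). For Dp peaks with Rbf the corresponding shares of 298 cases were 38.3%, 14.1% and 47.7%. Chains of 2 or more sites without Rbf at gaps of at most 500 bp numbered 218 and took up 528 sites (20.7%, 19.1 to 22.3). In Dp peaks with Rbf, 6.93% (5.88 to 8.09) had a neighbour of their own kind that close. These 2 shares were not compared among peaks of similar score. The longest chains held 6 sites each, on 2L at 21560555 to 21570263, where the sites covered 93.6% of 9.71 kb, and on X at 4990338 to 4997913, where they covered 85.7% of 7.58 kb. They are named for their length, after it was seen.

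In order along an arm, sites without Rbf followed each other somewhat more often than they followed other Dp peaks. After a site without Rbf, the next Dp peak was another such site in 1349 of 2548 cases (52.9%, 51.0 to 54.9). After any other Dp peak it was in 1198 of 2594 (46.2%, 44.3 to 48.1). Dp peaks under 4 kb with Rbf also followed each other more often, in 47.6% (45.4 to 49.7) of cases against 37.1% (35.2 to 39.0) after a site without Rbf. The difference for sites without Rbf was seen on 5 of 6 arms. On X the shares were 57.3% and 49.1%, on 3R they were close, at 48.3% and 46.6%, and on chromosome 4 they were 46.9% and 51.5%. With 50% coverage of each peak the difference was 3.68 in place of 6.76 percentage points. It was larger at short range. At gaps of at most 500 bp the next peak was a site without Rbf in 65.1% (60.7 to 69.4) after a site without Rbf and in 41.0% (33.3 to 49.0) after a peak under 4 kb with Rbf. At gaps above 5 kb these shares were 48.8% (46.1 to 51.4) and 46.6% (44.0 to 49.3), and their intervals overlapped.

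**Figure D4:**
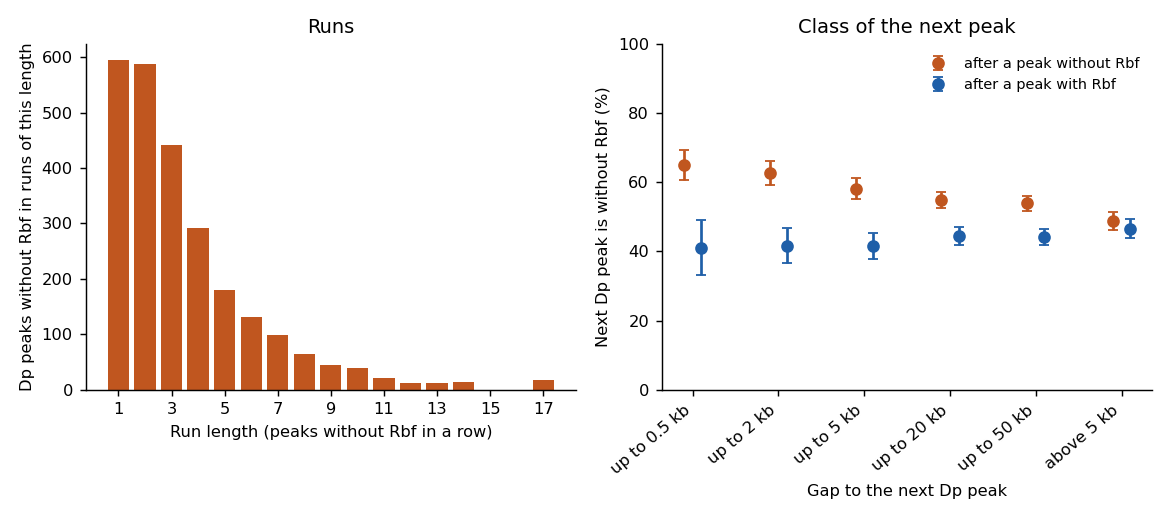
Left: number of sites without Rbf (y) in unbroken runs of each length (x). Right: percent of next Dp peaks that are without Rbf (y) by the gap to the next peak (x), after a peak without Rbf (orange) and after a peak under 4 kb with Rbf (blue), with exact 95% intervals; the classes up to 50 kb are cumulative, and the gap between the colours is widest up to 0.5 kb (65.1% and 41.0%) and narrowest above 5 kb (48.8% and 46.6%).

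An unbroken run was counted as sites without Rbf with no other Dp peak between them. There were 1203 runs, and 594 of them (49.4%) were a single site. Runs of 2 or more held 1958 sites (76.7%), and the 95 runs of 5 or more held 637 (25.0%). Since 49.6% of all Dp peaks on the arms were such sites, many runs would form in any order of the peaks. Run lengths in such an order were not computed, so these totals alone do not show clustering. Runs of 5 or more had a median span of 75.4 kb. An Rbf peak without Dp lay inside 24 of these 95 runs (25.3%), and inside 54 of the 514 runs of 2 to 4 (10.5%). Sites in runs of 5 or more were a median of 22234 bp from the nearest Rbf peak (quartiles 9726 and 52567), those in runs of 2 to 4 were 10645 bp away, and single sites 4942 bp (quartiles 1990 and 13955). A run ends at a Dp peak with Rbf or of at least 4 kb, so run length and gap to Rbf are linked by definition. How much of this series the definition accounts for was not tested. Width and score barely differed along this series, with median widths of 652, 634 and 634 bp and median scores of 143.78, 144.46 and 138.55.

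The longest run, of 17 sites, lay on X at 15890747 to 16165108. Its sites were 352 to 2740 bp wide (median 560) and scored from 52.69 to 490.69 (median 106.14). They covered 5.28% of its 274 kb, and 3 Rbf peaks without Dp lay between them. The gaps between its sites ran from 21 to 116845 bp, with a median of 4446 bp. A run of 14 on 3L at 9077013 to 9353556 was as long in bases (277 kb) and as sparse, with 5.67% covered, 1 Rbf peak inside, and scores from 54.42 to 528.66 (median 90.78). It began 212 bp after a Dp peak of at least 4 kb. The third, of 13 sites, was compact. It lay on 2L at 20166678 to 20200739, where sites of 578 to 1936 bp covered 36.8% of 34.1 kb with no Rbf peak inside, and scored from 54.08 to 441.27 (median 88.84). The longest runs thus included sparse stretches of up to 277 kb and a dense stretch, and no site in these 3 runs scored above 528.66.

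Sites without Rbf were spread over all arms. On the 118 full 1 Mb bins of listed span, their number ran from 6 to 53 with a median of 20 and quartiles of 15 and 25. Dp peaks with Rbf ran from 3 to 58 with a median of 16. The share without Rbf ranged from 24.0% to 80.0% per bin, with a median of 55.8%, and exceeded 50% in 79 bins. Across these bins the number of sites without Rbf had a Spearman's rho of 0.27 with the number of Rbf peaks and 0.30 with that of Dp peaks with Rbf. Dp peaks with Rbf had a rho of 0.75 with Rbf peaks, which they must overlap. These are descriptions over bins that share the same libraries. The bin with the most sites without Rbf was the first on 2R, from 1 to 1000000, with 53 beside 58 Dp peaks with Rbf and 143 Rbf peaks. The next were 2L from 22000001 to 23000000 with 44, beside 137 Rbf peaks, and 2L from 20000001 to 21000000 with 43, beside 35 Rbf peaks.

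By arm, the share of Dp peaks under 4 kb without Rbf ranged from 51.5% on 3R (48.3 to 54.8) to 58.8% on X (55.4 to 62.1). It was 57.4% on 2L (54.0 to 60.7), 54.3% on 3L (51.1 to 57.5), 52.5% on 2R (49.3 to 55.7) and 55.0% on chromosome 4 (33 of 60 peaks, 41.6 to 67.9). Ranked by share, arms next to each other had overlapping intervals, while those of 3R and X did not overlap. Density was 24.4 sites per Mb of listed span on chromosome 4, 24.1 on 2R, 22.4 on X, 21.8 on 2L, 21.1 on 3L and 17.5 on 3R. Their median width stayed between 632 and 650 bp on the 5 large arms and was 839 bp on chromosome 4. Their median score ran from 132 on 3L to 167 on X, and was 92.3 on chromosome 4. The median score of Dp peaks with Rbf varied more, from 843 on X to 1354 on 3R, and was 261 on chromosome 4. Of the sites outside chromosome 4, 19.9% (18.4 to 21.5) lay on X, against 16.9% (15.3 to 18.6) of Dp peaks with Rbf. This difference of 3.01 percentage points came to 1.01 with 50% coverage of both peaks (18.8% and 17.8%) and to 2.34 without the proximal stretches, where the approximate intervals, from -1.62 to 3.64 and from -0.161 to 4.85, include 0.

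**Figure D5:**
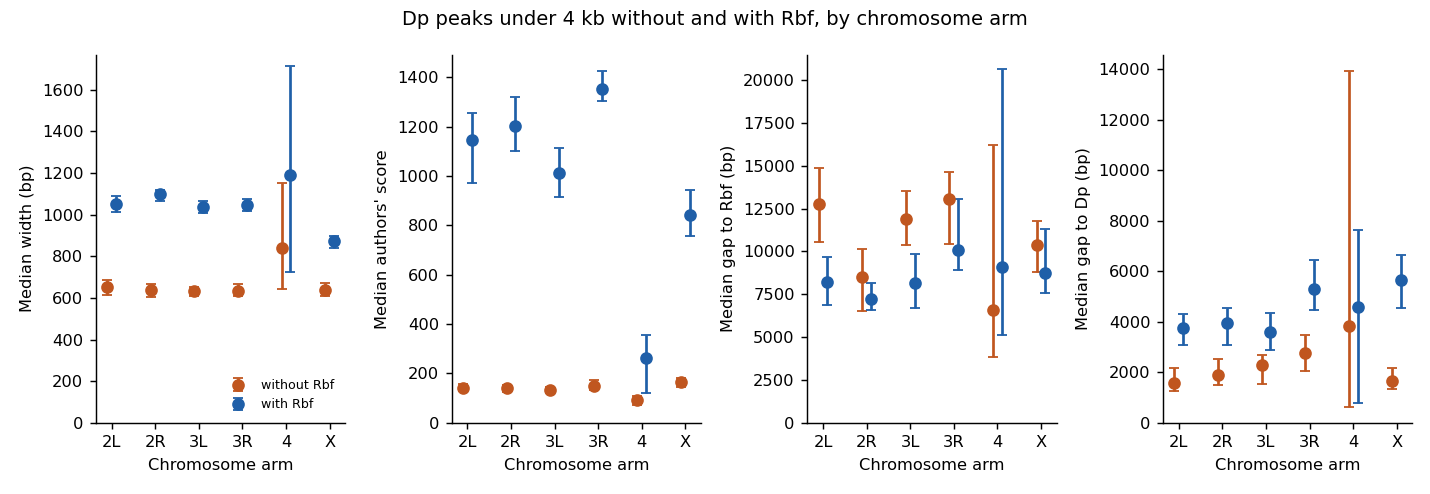
Median width (bp), authors' score, gap to the nearest Rbf peak not touched (bp) and gap to the nearest other Dp peak (bp) on each chromosome arm, for Dp peaks under 4 kb without Rbf (orange) and with Rbf (blue), with order-statistic 95% intervals of the median. Width, score and gap to Dp are lower without Rbf on 6 of 6 arms, and the gap to Rbf is longer on 5, with wide intervals on chromosome 4, which has 33 sites without and 27 peaks with Rbf.

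Close to the centromeres, sites without Rbf were denser than elsewhere. Within 2 Mb of the listed arm end at the centromere they numbered 42.5 per Mb on 2R, 39.5 on 3L, 35.5 on 2L, 28.5 on X and 21.5 on 3R. Outside these stretches the densities were 22.2, 19.4, 20.5, 21.8 and 17.2 per Mb. In total 335 sites (13.3%, 12.0 to 14.7) lay in these stretches, against 16.0% (14.5 to 17.7) of Dp peaks with Rbf and 24.1% (22.7 to 25.6) of Rbf peaks. The first difference was not stable. With a score of at least 100 in both lists it reversed, with 13.8% of sites without Rbf and 9.73% of Dp peaks with Rbf proximal, and the cause was not tested. It also reversed with 50% coverage of both peaks (14.7% and 14.2%), and it was -0.481 percentage points with a width limit of 2000 bp and -0.289 for a stretch of 4 Mb, in place of -2.75. Proximal sites were wider (median 799 against 623 bp), lower in score (104.45 against 151.89) and nearer to Rbf (4974 against 12566 bp) than the other sites. The same 3 shifts were present in Dp peaks with Rbf, with proximal medians of 1246 against 1014 bp in width, 219.03 against 1262.42 in score and 2458 against 10251 bp in gap to Rbf. Broad sites were proximal more often than narrow ones, in 24.9% against 9.73%, with 16.6% of those from 800 to below 1200 bp. Broad Dp peaks with Rbf were also proximal more often than narrow ones, in 27.5% against 19.2%, with 7.82% in between.

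The highest scores among sites without Rbf were reached by single sites on 4 arms. The highest, 1368.99, belonged to a 1074 bp site on X at 13151972 to 13153045. Another site without Rbf lay 414 bp away, and the nearest Rbf peak was 28684 bp away. A 3896 bp site on 3L at 24362172 to 24366067 scored 1309.98 and had an Rbf peak at 1165 bp. Sites of 1101 bp at 1774819 to 1775919 (1273.90) and of 1016 bp at 1638965 to 1639980 (1267.61), also on 3L, stood alone, with the nearest Dp peak at 18174 and 7119 bp and the nearest Rbf peak at 18311 and 7297 bp. On 3R, a site of 1824 bp at 11088751 to 11090574 scored 1211.31 and one of 888 bp at 7255204 to 7256091 scored 1094.69.

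The other 4 of these 10 sites were on 2L. A site of 3548 bp at 14465572 to 14469119 (1167.85) was the most isolated, with the nearest Dp peak at 103146 bp and the nearest Rbf peak at 103366 bp. It lies in the same interval without Rbf as the pair of most distant 2L sites above. The remainder were a 1339 bp site at 16727666 to 16729004 (1072.56), a 796 bp site at 2992272 to 2993067 (1062.70) and a 979 bp site at 5980820 to 5981798 (1061.89), with Rbf peaks at 7624, 6093 and 17548 bp. All 10 nearest Rbf peaks overlapped a Dp peak, as did 81.9% of all Rbf peaks on the arms. The nearest Dp peak was one with Rbf for 6 of these 10 sites and another site without Rbf for 4.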

How the data were processed

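Peaks were taken from 2 deposited lists, 1 per antibody, whose column 5 is a score that the authors gave each peak. Positions are those of build BDGP5, per the submitters' processing notes, which name bcl2fastq 1.8.3, Bowtie2 2 and MACS 1.4.2 without their roles. Whether the samples of an antibody were pooled, and whether input served as control, is not stated. No score was below 50.01 in either list.

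Peaks were called shared at 1 bp in common, on 6 arms. Gaps run from edge to edge, and positions are printed 1-based. The largest peak end stood for an arm's length. Shares have exact Clopper-Pearson intervals and medians order-statistic intervals at 95%. The code was tested on simulated lists, and counts of sites and gaps equalled those of bedtools 2.31.1 for all 2552 sites. Python 3.11.15, numpy 2.4.6, pandas 2.3.3, scipy 1.17.1 and matplotlib 3.10.9 were used.

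The sites and comparisons were chosen with earlier results of these data known. Sites named are the 10 of highest score, and 3 each of those farthest from Rbf, in the longest runs, nearest the width limit on either side, and nearest to overlap on either side. Others were named after their values were seen. The gene table at hand is of Release 6 and not of the build of the peaks, so genes and sequences at the sites are not given.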

Additional observations from a re-analysis of the deposited data

How the results depend on the processing

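Of 51 alternative values for 8 results, 30 stayed within the counting interval of the reported value, 18 moved beyond it in the same direction and 3 reversed. The share of Dp peaks under 4 kb without Rbf was 54.8%, and it came to 75.4% where sharing required 50% coverage of both peaks, 58.6% without Rbf peaks under 300 bp, 57.9% with a score of at least 100 in both lists and 52.9% when an Rbf peak within 500 bp also counted as shared. With 50% coverage, the median width without Rbf minus that with Rbf was -208 bp in place of -391, the difference in median score -1092 in place of -970, the difference in the share of next peaks without Rbf 3.68 percentage points in place of 6.76, and the difference in median gap to Rbf reversed from 2688 to -3741 bp, since sites that touch Rbf then entered at a gap of 0. With scores of at least 100, the differences were -272 bp in width and -1120 in score. Without Rbf peaks under 300 bp they were -1043 in score and 4244 bp in gap to Rbf, and without chromosome 4 and the proximal 2 Mb the score difference was -1111. The difference in the share with a Dp peak within 5 kb, 12.2 points, was 15.2 without those regions, 18.2 at a limit of 2 kb and 6.19 at 10 kb. The difference in the proximal share, -2.75 points, was -4.85 with Rbf within 500 bp as shared, -0.481 with a width limit of 2000 bp and -0.289 for a stretch of 4 Mb. It reversed to 0.493 with 50% coverage and to 4.06 with scores of at least 100, for which the cause was not tested. No paired analysis was possible because replicates are not kept apart in the lists, which also kept any replicate from being left out. Unknown read depth limits any reading of low-scoring sites, since a peak missed in the Rbf list turns a shared site into one without Rbf.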
